A study of Mus musculus with 16 samples.

Results

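Albumin and 8 other proteins that hepatocytes secrete into plasma were examined at the RNA level in primary mouse hepatocytes: *Alb*, *Afp*, *Ttr*, *Ahsg*, *Fetub*, *Ambp*, *Rbp4*, *Gc* and *Apoh*. They were picked by gene symbol, and all 9 were found among the 55450 genes of the count table. The cells came from livers of wild-type mice (C57BL/6J males of 8 to 12 weeks in the study's mouse work) and were kept overnight in medium with serum, insulin, transferrin and selenium. They were left untreated, given 10 mM sodium itaconate, given a chemically defined mixture of fatty acids and cholesterol at a dilution of 1 in 10, or given both, with 4 libraries a treatment (replicates A to D). Each letter holds 1 library of each treatment. The sources do not say whether a letter is a mouse, a culture or a day, so the p-values below measure the spread between these libraries, which may be technical.

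The liver makes most of the protein in blood plasma, and much of it serves to carry small molecules that dissolve poorly in water. Albumin carries fatty acids, bilirubin and many drugs, and its gene belongs to a family with *Afp*, the fetal counterpart that is shut down after birth, and *Gc*, the carrier of vitamin D. Transthyretin (*Ttr*) and retinol-binding protein 4 (*Rbp4*) travel together and carry thyroid hormone and retinol, and the fetuins (*Ahsg* and *Fetub*) are cystatin-like glycoproteins. In inflammation the liver lowers several of these proteins, which are therefore called negative acute-phase proteins.

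In the GRCm38 genome all 9 genes are annotated as protein-coding. *Gc* (89417522 to 89457898), *Alb* (90460897 to 90476602) and *Afp* (90490737 to 90508907) are on chromosome 5, where 14.1 kb separate *Alb* from *Afp*. *Ahsg* (22891277 to 22899449) and *Fetub* (22918334 to 22939778) are neighbours on chromosome 16, 18.9 kb apart. *Ambp* is on chromosome 4 (63143275 to 63154799), *Rbp4* on chromosome 19 (38116629 to 38125281) and *Apoh* on chromosome 11 (108343354 to 108414396).

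The sequences just before a RefSeq transcription start are shown for the albumin family, whose RNA levels lie farthest apart, and for *Ahsg*, which moved the opposite way from *Alb* with lipid. Each is 120 bases long, ends at the base before the RefSeq start (GRCm38.p6) and reads along the gene's strand. The gene spans given above are from GENCODE and can begin elsewhere. The GENCODE spans of *Alb* (from 90460897) and *Afp* (from 90490737) begin some bases after the stretches printed here end. The stretch of *Ahsg* lies inside its GENCODE span (22891277 to 22899449). Capitals mark TATAAA, the core of the TATA box where the general transcription machinery can settle, which was picked after these sequences had been read.
Alb, chr5:90460750-90460869, plus strand: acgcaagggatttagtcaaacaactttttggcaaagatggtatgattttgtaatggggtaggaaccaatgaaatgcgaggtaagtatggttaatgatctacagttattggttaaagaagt
Afp, chr5:90490594-90490713, plus strand: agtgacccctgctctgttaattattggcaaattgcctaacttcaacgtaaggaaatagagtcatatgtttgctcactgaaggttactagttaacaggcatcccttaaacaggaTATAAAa
Gc, chr5:89457899-89458018, minus strand: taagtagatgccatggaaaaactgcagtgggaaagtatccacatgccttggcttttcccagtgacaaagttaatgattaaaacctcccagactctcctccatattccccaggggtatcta
Ahsg, chr16:22891895-22892014, plus strand: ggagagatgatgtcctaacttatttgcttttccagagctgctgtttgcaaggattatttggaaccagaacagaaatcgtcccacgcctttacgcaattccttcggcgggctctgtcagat

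Searched on both strands over the 250 bases before the RefSeq start, TATAAA was found at -7 in *Afp*. It was at -31 before 1 of the 2 starts listed for *Fetub* and at -28 before 1 of the 2 starts of *Rbp4*. Positions are counted from the RefSeq start to the first base of the match. For *Afp* the GENCODE start (90490737) lies farther downstream, so the match is farther from that start. The GENCODE start of *Alb* (90460897) also lies farther downstream. For both genes the bases between the RefSeq and GENCODE starts were not searched. No match was found in the other 5 of the 8 members searched (*Alb*, *Ahsg*, *Ambp*, *Gc* and *Apoh*). Chromosome 18, where *Ttr* lies, was left out of the search. Of the 32851 promoters searched, 4063 (12.4%) held it. The match is a description of the letters and shows no binding.

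Library totals ran from 22346049 (untreated replicate A) to 35512004 counts (itaconate replicate D). Levels are given as CPM, each gene's counts scaled to a common TMM-normalized library size. Summed over the 9 genes, the share of all counts was 3.82 to 5.73% in the 16 libraries, and *Alb* alone held 2.53 to 4.24%. *Alb* accounted for 66.2 to 74.3% of the counts of the 9 genes.

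To compare genes, CPM was divided by the length of the merged exons. *Alb* then stood at 14307 ± 2540 CPM per kb (SD over the 16 libraries) and ranked 1 among all genes. *Gc* followed at 2852 ± 219 CPM per kb (rank 22), 5.02 times lower than *Alb*. *Ttr* (1545 ± 193), *Ahsg* (1452 ± 168) and *Ambp* (1310 ± 136), all in CPM per kb, came next. The order of these 3 differed with lipid: *Ttr* was above *Ahsg* in 8 of 8 libraries without lipid (1649 ± 126 against 1359 ± 114 CPM per kb), and *Ahsg* was above *Ttr* in 7 of 8 with lipid (1544 ± 167 against 1441 ± 198). *Ahsg* was above *Ambp* in 5 of 8 libraries without lipid and in 8 of 8 with lipid. *Rbp4* (732 ± 50.8), *Apoh* (398 ± 30.0) and *Fetub* (112 ± 11.2 CPM per kb) followed, each below the gene before it in every library. Per kb, *Ttr* RNA was 2.11 times that of its plasma partner *Rbp4*, and *Ahsg* RNA 13.0 times that of its neighbour *Fetub*.

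**Figure D1:**
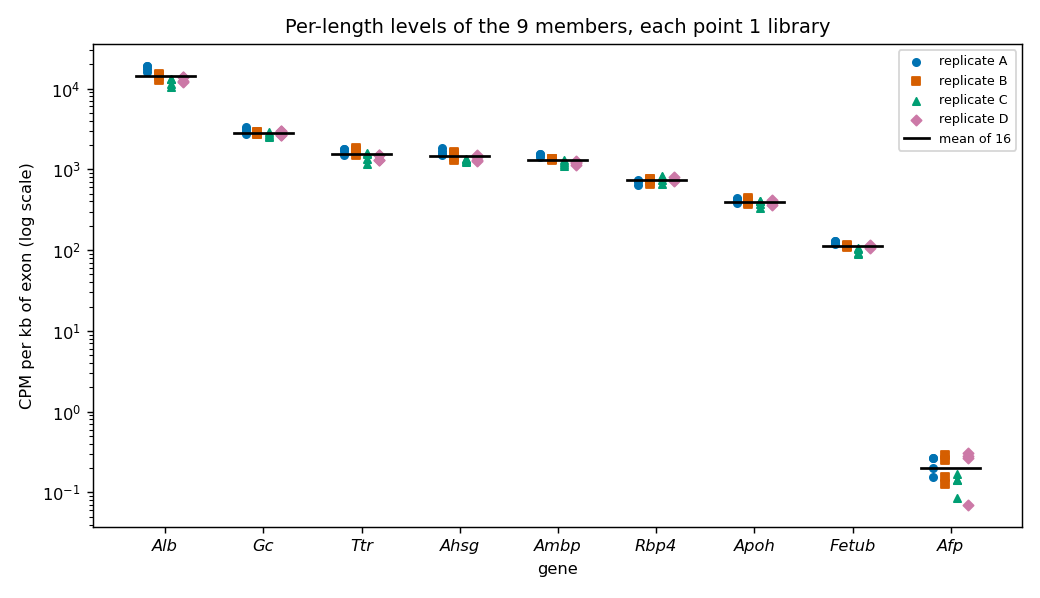
Levels of the 9 genes in CPM per kb of exon (vertical log axis), with a point for each of the 16 libraries, the replicate letters as symbols and the mean as a bar. *Alb* lies at the top at 14307 CPM per kb, 7 genes lie between 112 and 2852, and *Afp* lies far below at 0.198.

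*Afp* was close to the limit of detection at 0.198 ± 0.0775 CPM per kb, and per kb *Alb* RNA was 72136 times as abundant. It had 7 to 33 counts a library, 298 in all. In untreated cells its level was 0.89, 0.84, 0.47 and 1.03 CPM in replicates A to D, and with lipid it was 0.53, 0.98, 0.28 and 0.24 CPM. The groups overlapped, because replicate B with lipid was as high as the untreated libraries. Since its mean of 0.668 CPM lay under the filter of 1 CPM, its values come from a fit of that model to all genes with a count. There the log2 fold change with lipid was -0.66 ± 0.36 (SE; edgeR adjusted p = 0.217), lower in 3 of 4 letters. At this depth no change was detectable.

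The 7 other genes of fetal liver that were looked up (*H19*, *Igf2*, *Dlk1*, *Gpc3*, *Igf2bp3*, *Lin28b* and *Cd24a*) were also under the filter, with at most 13 counts in any library. *Gpc3*, a cell-surface proteoglycan of fetal liver, had 0 counts in all 16 libraries, and *H19*, an imprinted RNA that is silenced together with *Afp*, had at most 4. The regulators known to hold *Afp* down in adult liver were present. *Zbtb20* had 169 ± 7.13, *Zhx2* 48.0 ± 2.90 and *Zfhx3* 25.5 ± 2.72 CPM (SD, n = 4) in untreated cells. With lipid, *Zfhx3* rose to 32.6 ± 2.66 CPM (log2 fold change 0.35, edgeR adjusted p = 0.000482), whereas *Zbtb20* (0.14, adjusted p = 0.0815) and *Zhx2* (-0.04, adjusted p = 0.462) did not pass the test.

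**Figure D2:**
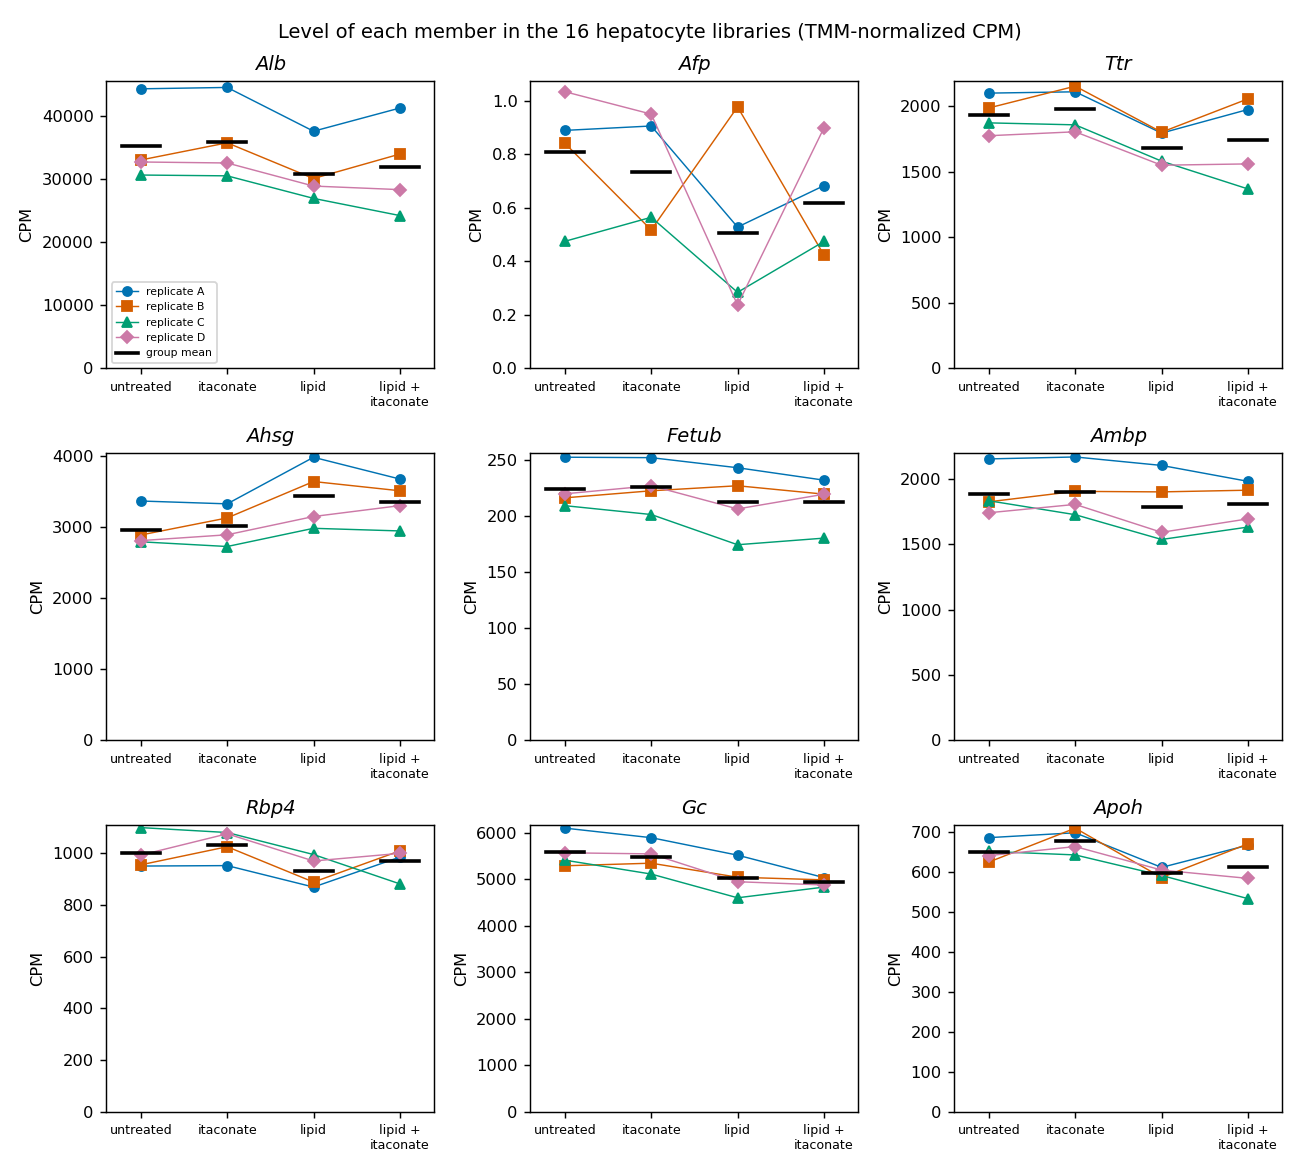
TMM-normalized CPM of each gene (vertical axes from 0) in the 4 treatments, with 1 line per replicate letter and black bars at the group means. *Alb* is lower and *Ahsg* higher with lipid in all 4 letters, and replicate A is the highest for *Alb* in every treatment (37648 to 44605 CPM, against 24243 to 35805 in the other letters).

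The replicate letter moved *Alb* more than any treatment did. The mean of *Alb* over the 4 treatments was 41993 CPM in letter A, 33259 in B, 28114 in C and 30664 in D, a range of 1.49-fold, while the treatment means spanned 1.16-fold. Letter A was the highest in 4 of 4 treatments for *Alb*, *Ahsg*, *Fetub*, *Ambp* and *Gc*. *Rbp4*, *Afp*, *Ttr* and *Apoh* did not share this: letter A was the highest in 0, 0, 1 and 2 of 4 treatments. The letters of *Rbp4* spanned 1.08-fold and those of *Apoh* 1.10-fold. The letter, the only label that resembles a batch, was a term of the model, so that treatments were compared within letters. What sets the letters apart was not tested.

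With the lipid mixture *Alb* (-12.0%), *Ttr* (-13.1%) and *Gc* (-10.2%) fell and *Ahsg* (15.6%) rose. In lipid-treated against untreated hepatocytes, 3 of the 8 members tested were lower and 1 was higher at an adjusted p under 0.05. Lipid changed 47.5% of the 11675 genes tested in this comparison, 23.8% being higher and 23.7% lower, so the members were called about as often as genes in general. Their median log2 fold change was -0.11, beside 0.00 over all genes, and the called genes of the whole table had a median absolute change of 0.33.

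*Alb* was at 44386, 33080, 30685 and 32759 CPM in untreated replicates A to D and at 37648, 30132, 26974 and 28932 CPM with lipid. Lipid replicate A was above 3 of the untreated libraries, so the groups overlapped, but *Alb* was lower with lipid in 4 of 4 letters, with changes of -15.2 to -8.91%. The log2 fold change was -0.18 ± 0.06 (SE; 95% interval -0.31 to -0.06; edgeR adjusted p = 0.0142). *Ttr* (chromosome 18, 20665280 to 20674321) was at 2098, 1985, 1871 and 1773 CPM in untreated cells and at 1793, 1800, 1579 and 1548 CPM with lipid. It was lower in 4 of 4 letters, with a small overlap between lipid replicates A and B and untreated replicate D. Its log2 fold change of -0.20 ± 0.06 (adjusted p = 0.0151) was close to that of *Alb*.

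*Gc*, whose product binds vitamin D and free actin, was at 6106, 5295, 5416 and 5575 CPM in untreated cells and at 5524, 5049, 4606 and 4952 CPM with lipid. It was lower in 4 of 4 letters and the groups overlapped through lipid replicate A. The log2 fold change was -0.15 ± 0.05 (edgeR adjusted p = 0.0119). *Apoh*, which encodes the phospholipid-binding beta-2-glycoprotein I, was at 685, 624, 651 and 640 CPM in untreated cells and at 611, 585, 591 and 604 CPM with lipid. These were the only groups of a member without overlap in this comparison, and the share of all genes without overlap was not counted. Its log2 fold change of -0.12 ± 0.05 nevertheless missed the threshold (adjusted p = 0.0787).

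*Ahsg* moved the other way. This gene for fetuin-A, which keeps calcium phosphate from precipitating in blood, was at 3361, 2883, 2787 and 2804 CPM in untreated cells and at 3976, 3635, 2977 and 3143 CPM with lipid. It was higher with lipid in 4 of 4 letters, by 6.82 to 26.1%, and the groups overlapped because untreated replicate A was above lipid replicates C and D. The log2 fold change was 0.21 ± 0.05 (95% interval 0.11 to 0.31; edgeR adjusted p = 0.00224), the smallest adjusted p of the 9 genes.

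The 3 members left did not pass the test. *Fetub*, whose product keeps the egg coat open to sperm by inhibiting a protease, was at 253, 216, 209 and 220 CPM in untreated cells and at 243, 227, 174 and 206 CPM with lipid (log2 fold change -0.08, adjusted p = 0.158). *Ambp*, whose product is cleaved into alpha-1-microglobulin and the protease inhibitor bikunin, had a mean of 1890 ± 182 CPM in untreated and 1785 ± 268 CPM in lipid-treated cells (-0.09, adjusted p = 0.160). Both were higher in letter B and lower in the other letters. *Rbp4* had 999 ± 69.4 CPM in untreated and 930 ± 61.2 CPM in lipid-treated cells (SD, n = 4; -0.10, adjusted p = 0.159) and was lower in 4 of 4 letters.

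In the presence of itaconate the lipid mixture gave a similar picture, with 4 of 8 members lower (*Alb*, *Ttr*, *Gc* and *Apoh*) and 1 higher (*Ahsg*). In this comparison 47.0% of all genes tested were called, 23.5% higher and 23.5% lower. *Alb* was at 44605, 35805, 30556 and 32600 CPM with itaconate alone and at 41334, 34019, 24243 and 28366 CPM with both (log2 fold change -0.18 ± 0.06, edgeR adjusted p = 0.0184). The change was uneven, from -4.99% in letter B to -20.7% in letter C. *Ttr*, lower in 4 of 4 letters, ranged from 1803 to 2151 CPM with itaconate and from 1367 to 2054 CPM with both (-0.20, adjusted p = 0.0174).

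Among the members only *Gc* had groups that did not overlap here, and the share of all genes without overlap was not counted. *Gc* was at 5900, 5351, 5117 and 5551 CPM with itaconate against 5041, 4992, 4836 and 4882 CPM with both (log2 fold change -0.15, edgeR adjusted p = 0.0153). *Apoh* was at 697, 709, 642 and 663 CPM with itaconate and at 666, 670, 533 and 583 CPM with both (-0.15, adjusted p = 0.0350). It was lower in 4 of 4 letters, while replicates A and B with both agents lay within the range of the itaconate libraries. *Ahsg* was at 3321, 3123, 2721 and 2886 CPM with itaconate and at 3670, 3505, 2940 and 3296 CPM with both (0.15 ± 0.05, adjusted p = 0.0158), higher in 4 of 4 letters by 8.06 to 14.2%. *Fetub* (-0.09, adjusted p = 0.146), *Ambp* (-0.07, adjusted p = 0.251) and *Rbp4* (-0.09, adjusted p = 0.227) again did not pass.

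These calls rest on comparing libraries within letters, on the scaling and, in the presence of itaconate, on the spread estimated over all 16 libraries. When only the 8 libraries of that comparison were fitted, with the letter kept, 0 of 8 members passed (edgeR adjusted p = 0.153 for *Alb*, 0.0574 for *Ttr*, 0.117 for *Gc*, 0.0505 for *Apoh* and 0.0794 for *Ahsg*). Without the replicate block, 0 of 8 members passed in either lipid comparison. The adjusted p-values were then 0.405 and 0.471 for *Alb*, 0.173 and 0.209 for *Ttr*, 0.101 and 0.110 for *Gc*, and 0.108 and 0.251 for *Ahsg*, without and with itaconate. Scaled by total counts, the median gene was 0.08 (log2) higher with lipid alone and 0.06 higher with lipid in the presence of itaconate. Against untreated cells *Ahsg* was then the only member called (1 higher, 0 lower), with *Alb* at -0.10 (adjusted p = 0.0655), *Ttr* at -0.12 (adjusted p = 0.0705) and *Gc* at -0.07 (adjusted p = 0.196). In the presence of itaconate that scaling called 1 member higher (*Ahsg*) and 2 lower (*Alb* and *Ttr*).

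Single libraries also decided some calls. For lipid against untreated cells, *Alb* no longer passed without lipid replicate A (adjusted p = 0.0551) or B (0.0525), *Ttr* without untreated replicate C (0.0690) and *Gc* without lipid replicate C (0.0516), whereas *Ahsg* passed whichever library was left out. In the presence of itaconate *Apoh* was the least settled. It lost its call without itaconate replicate B, C or D or lipid + itaconate replicate C or D (adjusted p from 0.0685 to 0.128).

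Lipid + itaconate replicate B stood apart from its group (chi-square per gene of 87.0 to 120 against its 3 fellow replicates, and at most 52.4 in every other pair of replicates). Without it, the same 5 members were called in the presence of itaconate.

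Itaconate itself moved none of the members past the threshold. In cells without lipid, 0 of 8 members were called, where 4.91% of all genes tested were, and in cells with lipid 0 of 8 were called against a background of 2.58%. At an unadjusted p under 0.05 the count was also 0 in both comparisons, and DESeq2 called 0. *Alb* had a log2 fold change of 0.03 ± 0.06 without lipid (adjusted p = 0.828) and of 0.03 ± 0.06 with lipid (adjusted p = 0.805), higher in 2 and lower in 2 of 4 letters each time. Over the 8 members the log2 fold changes ran from -0.03 to 0.06 in each comparison. The widest 95% bounds were -0.13 for *Gc* and 0.17 for *Apoh* without lipid, and -0.13 for *Ahsg* and 0.19 for *Rbp4* with lipid. The interaction of itaconate and lipid, which asks whether the lipid effect differed with itaconate, was called for 0 of 8 members (0 at an unadjusted p under 0.05 and 0 with DESeq2). It was called for 0.00857% of all genes, that is for 1 gene, *Cxcl10*. The largest interaction among the members was that of *Ahsg* (-0.06 ± 0.07, adjusted p = 0.868).

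**Figure D3:**
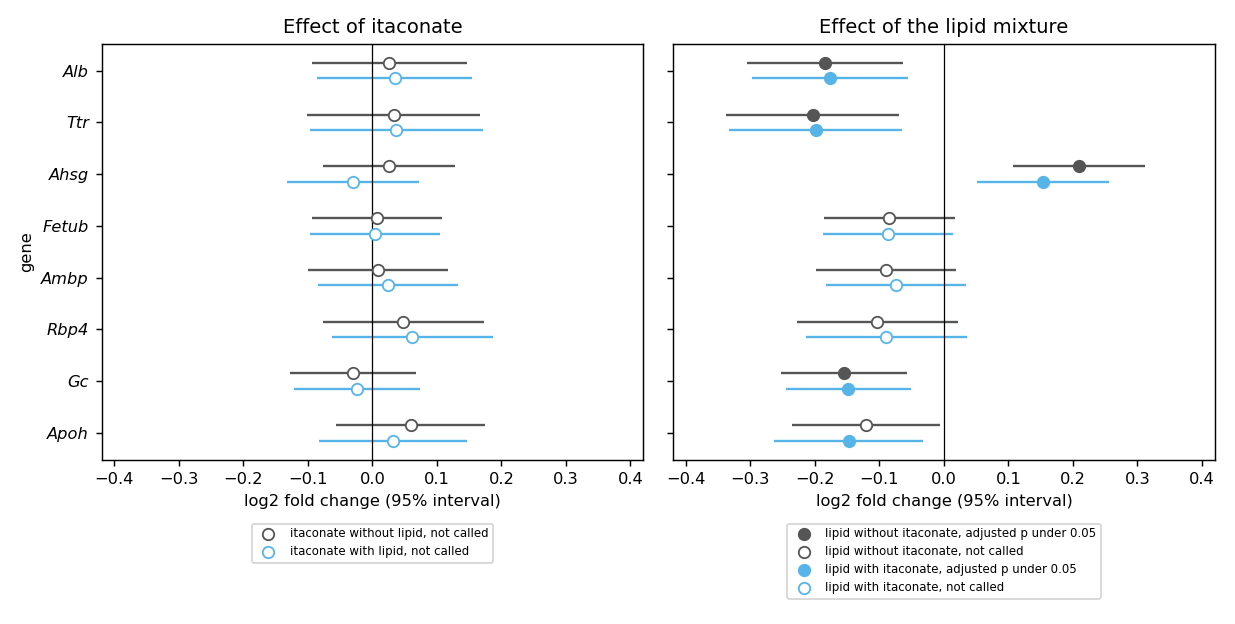
Log2 fold changes of 8 members (points) with 95% intervals (lines), on the left for itaconate and on the right for lipid, with filled points at an edgeR adjusted p under 0.05. On the left every interval spans 0, and on the right *Alb*, *Ttr* and *Gc* lie below 0 and *Ahsg* above 0 both without and with itaconate.

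Ratios taken within a library need no scaling between libraries. The CPM ratio of *Ahsg* to its neighbour *Fetub* was 13.2 ± 0.284 in untreated cells, 13.4 ± 0.558 with itaconate, 16.2 ± 0.765 with lipid and 15.8 ± 0.548 with both (SD, n = 4). It was 12.7 to 14.0 in the 8 libraries without lipid and 15.0 to 17.1 in the 8 with lipid. These ranges did not overlap, and the share of gene pairs without overlap was not counted. The letters also lay closer together in this ratio than in the levels of either gene: in untreated cells it was 13.3, 13.3, 13.3 and 12.7 in replicates A to D. *Ahsg* over *Alb* was 0.0848 ± 0.00645 in untreated and 0.111 ± 0.00652 in lipid-treated cells, higher in each of the 4 letters. That direction was set in advance, because *Ahsg* was higher and *Alb* lower with lipid in each letter. *Ttr* over *Rbp4* was 1.94 ± 0.239 in untreated and 1.82 ± 0.262 in lipid-treated cells. It was lower with lipid in 4 of 4 letters, by a change of -10.6 to -2.5%, and in 4 of 4 letters in the presence of itaconate (-9.77 to -2.98%). For each of these 3 ratios, in both lipid comparisons, an exact two-sided permutation test within letters gave p = 0.125 (0.125 adjusted over the 6 tests), the smallest that 4 letters allow. For *Ahsg* over *Alb* in both comparisons, the genes already moved opposite ways in every letter. The same holds for *Ahsg* over *Fetub* in the presence of itaconate. There the p-value was set in advance and adds no support.

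**Figure D4:**
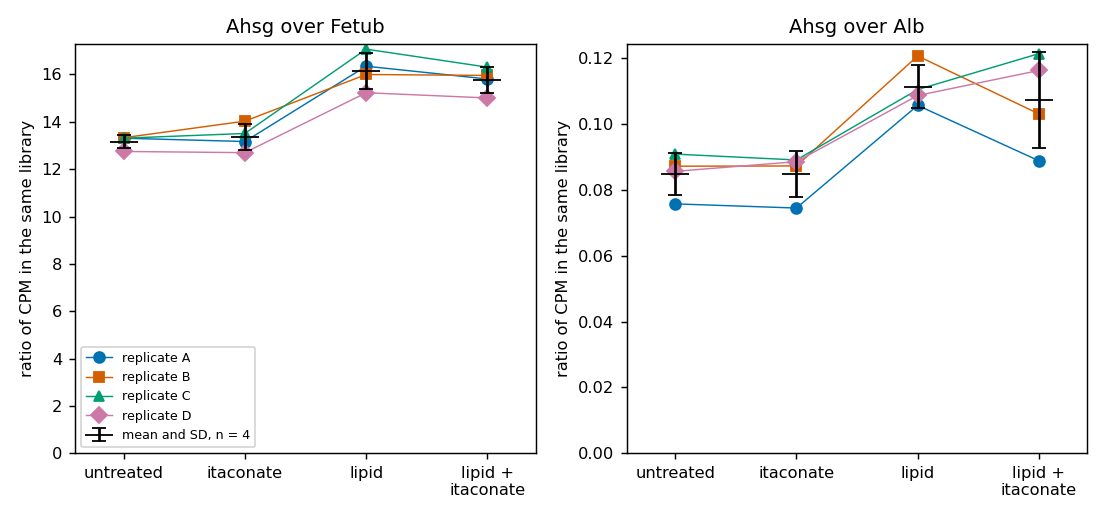
Ratio of CPM within the same library (vertical axes from 0) for *Ahsg* over *Fetub* (left) and *Ahsg* over *Alb* (right), with 1 line per replicate letter and the mean ± SD (n = 4). For *Ahsg* over *Fetub* the libraries without lipid end at 14.0 and those with lipid begin at 15.0. The share of gene pairs without overlap was not counted.

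Of 13 other plasma carriers from the liver that were tested, 8 fell and 1 rose with lipid alone, and 6 fell and 1 rose in the presence of itaconate, beside 23.7% and 23.5% of all genes called lower. Their median log2 fold change with lipid alone was -0.16. Carriers that also respond in inflammation were not removed, so these counts and those of the acute-phase genes below are not independent. This list and those below were chosen with earlier results of these data known, so counts beside the share of all genes are only a description. Ceruloplasmin (*Cp*), the copper carrier, fell from 2285 ± 198 to 1242 ± 242 CPM (-0.89, edgeR adjusted p = 7.13e-06). The thyroxine-binding globulin gene *Serpina7* fell from 1081 ± 91.7 to 724 ± 140 CPM (-0.58, adjusted p = 0.000523), beside -0.20 for the thyroid hormone carrier *Ttr*. Haptoglobin (*Hp*), which binds free hemoglobin, changed by -0.37 (adjusted p = 0.00122) and the kininogen gene *Kng2* by -0.16 (adjusted p = 0.00333). The carrier that rose was transferrin (*Trf*), which transports iron. It was named after its values were seen, and went from 14262 ± 1629 to 15816 ± 2304 CPM (0.15, adjusted p = 0.0300), higher in 4 of 4 letters as *Ahsg* was.

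Genes for positive acute-phase proteins, which rise in inflammation, mostly fell with lipid, as *Alb*, *Ttr* and *Gc* did, while *Ahsg* rose. Of 13 such genes, 9 fell and 2 rose with lipid alone (8 and 2 in the presence of itaconate). Whether inflammation plays a part in the changes of the members was not tested. Of all genes tested, 23.7% fell with lipid alone and 23.5% in the presence of itaconate. The median log2 fold change of the 13 acute-phase genes with lipid alone was -0.23. Serum amyloid A3 (*Saa3*) fell from 112 ± 20.2 to 51.6 ± 5.82 CPM (-1.11, edgeR adjusted p = 9.08e-09), serum amyloid P (*Apcs*) by 0.87 on the log2 scale (adjusted p = 1.1e-07), C-reactive protein (*Crp*) by 0.67 (adjusted p = 5.38e-05) and the fibrinogen beta chain (*Fgb*) by 0.41 (adjusted p = 3.87e-05). The genes that rose were *Orm2* (0.31, adjusted p = 0.00097) and *Orm3* (0.93, adjusted p = 0.000932), near copies of each other that encode the drug carrier orosomucoid. They were named after their values were seen, and reads that fit both can be split between them by the counting. In untreated cells *Orm2* was at 198 CPM and *Orm3* at only 2.39 CPM. *Orm1*, the most abundant orosomucoid gene here, did not pass: it was at 1053 ± 192 CPM in untreated and 1104 ± 282.5 CPM in lipid-treated cells (0.05, edgeR adjusted p = 0.457). In the presence of itaconate it did not pass either (-0.03, edgeR adjusted p = 0.685).

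Among genes whose products work with the members, 2 of 7 tested fell and 1 rose with lipid alone, beside 47.5% of all genes called. *Fcgrt*, the receptor that returns albumin and antibodies to the circulation, fell from 55.9 ± 4.88 to 41.0 ± 1.5 CPM (-0.45, edgeR adjusted p = 1.99e-05). *Cyp2r1*, the 25-hydroxylase of the vitamin D that *Gc* protein carries, fell from 11.5 ± 1.03 to 9.00 ± 1.57 CPM (-0.36, adjusted p = 0.00491). *Itih3*, a heavy chain that is joined to bikunin from *Ambp*, rose (0.14, adjusted p = 0.0316). In the presence of itaconate 3 fell and 0 rose (*Fcgrt*, *Cyp2r1* and *Itih2*), beside 47.0% of all genes called.

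Genes that handle retinoids inside cells mostly fell with lipid, while *Rbp4*, the secreted retinol carrier, did not pass the test. Of 11 tested, 8 fell and 1 rose in each lipid comparison, beside 23.7% and 23.5% of all genes called lower. Their median log2 fold changes were -0.65 and -0.70. As this list was chosen with earlier results of these data known, the counts beside the share of all genes add no support. The retinoic acid receptor *Rarb* fell from 7.05 ± 0.465 to 2.57 ± 0.464 CPM (-1.47, edgeR adjusted p = 6.33e-08). The retinaldehyde reductase *Dhrs3* (-1.11, adjusted p = 1.1e-07) and the retinol dehydrogenase *Rdh10* (-0.90, adjusted p = 1.69e-07) also fell. *Cyp26a1*, which breaks down retinoic acid, fell by 1.54 on the log2 scale in the presence of itaconate (adjusted p = 8.49e-06). The gene that rose was *Bco1*, which cleaves beta-carotene (1.17, adjusted p = 2.71e-06).

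**Figure D5:**
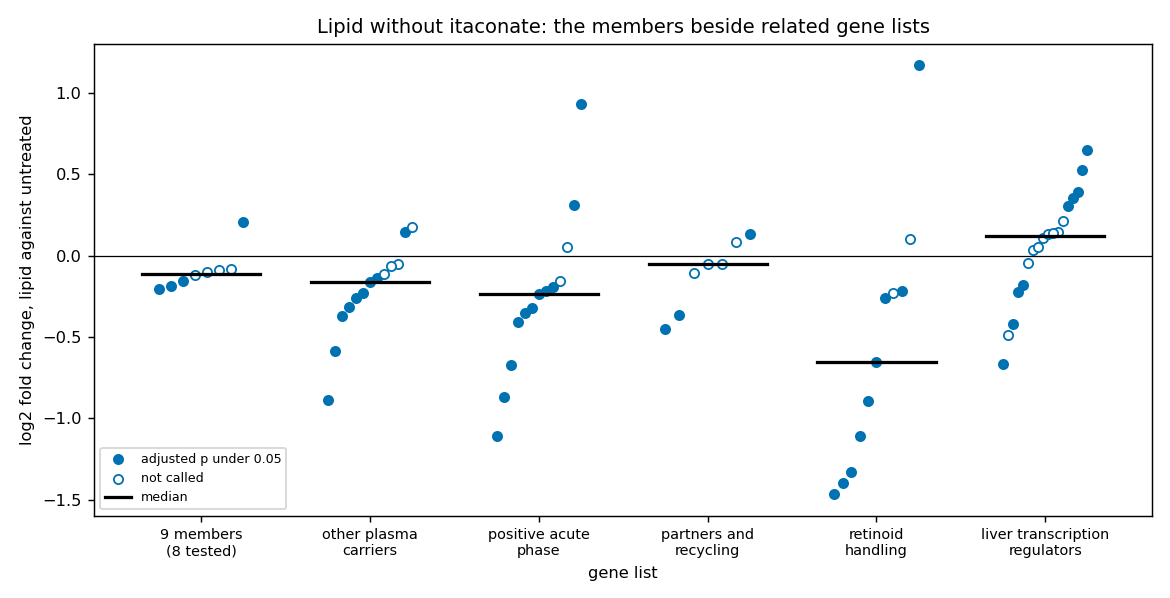
Log2 fold changes with lipid alone (vertical axis) for the members tested and 5 related gene lists, with a point per gene, filled at an edgeR adjusted p under 0.05, and bars at the medians. The members lie between -0.20 and 0.21, and the retinoid genes spread from -1.47 to 1.17.

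Of 18 regulators of liver transcription, 5 rose and 4 fell with lipid alone, and 8 rose and 2 fell in the presence of itaconate. Of all genes tested, 47.5% and 47.0% were called in these comparisons. *Cebpa*, an activator of *Alb*, rose from 133 ± 8.88 to 175 ± 23.6 CPM (0.39, edgeR adjusted p = 3.98e-05), opposite in direction to *Alb*. *Gata4* rose from 12.1 ± 0.552 to 19.04 ± 2.30 CPM (0.65, adjusted p = 3.22e-06). *Nr5a2*, an activator of *Afp*, fell from 24.9 ± 2.68 to 18.7 ± 3.46 CPM (-0.42, adjusted p = 0.0110). *Hnf4a*, a nuclear receptor that keeps hepatocytes differentiated, had 214 ± 16.4 CPM in untreated and 232 ± 33.0 CPM in lipid-treated cells (0.11, adjusted p = 0.171). In the presence of itaconate lipid raised *Hnf4a* (0.21, adjusted p = 0.0143), and its interaction was not called (adjusted p = 0.811).

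Itaconate changed few genes of these lists. *Bco1* was lower with itaconate in both comparisons (-0.55, edgeR adjusted p = 0.0270 without lipid and -0.65, adjusted p = 0.0122 with lipid). In cells with lipid *Apcs* was higher (0.31, adjusted p = 0.0269) and *Itih3* lower (-0.20, adjusted p = 0.0435). None of the other carriers and none of the 18 regulators was called for itaconate, beside 4.91% of all genes without lipid and 2.58% with lipid.

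These list counts moved with the settings as those of the members did. Without the replicate block 0 carriers rose and 3 fell with lipid alone, and 1 acute-phase gene rose and 6 fell. The retinoid list still held 7 that fell and 1 that rose. Scaled by total counts, 7 regulators rose and 3 fell with lipid alone, and 8 rose and 0 fell in the presence of itaconate.

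The hepatocyte label held in the data. All 10 hepatocyte markers looked up were above 1 CPM, and their sum was 11862 to 14040 CPM in untreated cells, 12141 to 14184 with itaconate, 10111 to 11448 with lipid and 9204 to 12802 with both. With lipid alone 1 of the 10 rose (*Asgr1*, 0.26, edgeR adjusted p = 0.00513) and 1 fell, *Fgb*, from 4291 ± 393 to 3242 ± 415 CPM, which is also counted among the acute-phase genes. With itaconate present 0 rose and 5 fell (*Apob*, *Cps1*, *Ass1*, *Arg1* and *Fgb*). Of all genes tested, 47.5% were called with lipid alone and 47.0% with itaconate present. Among the markers of other cells, the 9 of macrophages summed to 162 to 272 CPM in untreated and 221 to 317 CPM in lipid-treated cells, most of it *Cd68*, which rose (0.43, adjusted p = 5.36e-06). The other macrophage markers mostly went the opposite way: of 7 tested, 4 fell with lipid alone (*Adgre1*, *C1qa*, *C1qb* and *C1qc*), and 6 fell in the presence of itaconate, with *Cd68* higher both times and median log2 fold changes of -0.44 and -0.93. The 5 of bile duct cells summed to 600 to 1171 and 336 to 609 CPM, most of it *Spp1* and nearly all the rest *Sox9*. The other 3 (*Krt7*, *Krt19* and *Epcam*) were under 1 CPM. The 8 of stellate cells summed to 21.4 to 24.4 and 17.9 to 21.8 CPM, most of it *Reln*, with the other 7, collagens included, under 1 CPM. The 6 of endothelial cells summed to 11.3 to 21.5 and 13.1 to 22.6 CPM. The part of these shifts in the changes of the members was not tested, and in bulk RNA fewer cells of a type cannot be told apart from less RNA per cell.

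The genes whose profile over the 16 libraries was most like that of each tested member were looked up. Likeness was Pearson's r of log2 CPM after the mean of each letter was removed, over 9354 genes. The libraries share the treatments and the scaling, so r is only a description. Genes picked in this way tend to share the member's change with lipid by the choice itself. *Alb* was closest to *Ces2a* (r = 0.988), *Atp5b* (0.987) and *Akr1d1* (0.986), and *Ces2a* was also closest to *Ttr* (0.986). *Gc* was closest to the heparin cofactor gene *Serpind1* (0.976), and *Apoh* to the antitrypsin gene *Serpina1d* (0.980). *Rbp4* was closest to *Cyp2d9* (0.98). *Ahsg* was closest to *Tmem177* (0.967), *Gstt2* (0.962) and *Zfp691* (0.959), which had log2 fold changes of 0.41, 0.36 and 0.42 with lipid alone. *Fetub*, the neighbour of *Ahsg*, was closest to *Pir* (0.915), which also stood near *Ambp* (0.886).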

How the data were processed

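RNA from primary mouse hepatocytes (16 libraries, 4 a treatment) was made into stranded mRNA libraries. The authors trimmed reads (cutadapt 1.18), aligned them to mm10 (STAR 2.7.0f) and deposited RSEM 1.3.1 expected counts per gene, which are not normalized. Here the counts were rounded and analysed with edgeR 4.0.16 in R 4.3.3: TMM, a filter at a mean of 1 CPM (11675 genes kept), the quasi-likelihood test on treatment and replicate letter in 1 model of all libraries, and Benjamini-Hochberg adjustment over all genes tested at 0.05. All adjusted p-values are from edgeR unless DESeq2 1.42.0 is named. The letters were taken to pair libraries. The 24 same-letter correlations of deviations from group means were 0.144 to 0.469 (median 0.263). The 72 between different letters were -0.436 to 0.178 (median -0.114), so the ranges overlapped a little. Library totals of 22346049 to 35512004 give at least 4301 counts a library for every member except *Afp* (7 to 33). Positions and exon lengths are from GENCODE M21. Named genes were all members, at most 4 per list and comparison by smallest adjusted p, regulators known for *Afp* or *Alb*, and the 3 genes most like a member. Of the regulators counted, 2 are not reported singly here. The members and lists were chosen with earlier results of these data known. Alternatives were other scalings, filters, DESeq2, no replicate block, fewer libraries, and each library left out. The pipeline was tested on simulated data.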

Additional observations from a re-analysis of the deposited data

Results flagged for a closer look

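In 1 of 36 groups of 4 libraries (each of the 9 genes in each treatment), the highest or lowest library lay far from the others. This was *Ahsg* in untreated cells, where replicate A was at 3361 CPM against 2787 to 2883 CPM in the other 3, a gap of 0.833 of the whole range. About 1 group in 20 is marked by this rule by chance. Letter A was also the highest for *Ahsg* in the other 3 treatments. Without untreated replicate A, *Ahsg* was still called with lipid.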

How the results depend on the processing

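In both lipid comparisons each of the 8 members kept its direction under every alternative, whereas the calls depended on the replicate block and the scaling. Without the replicate block 0 members were called, against 4 without and 5 with itaconate, and of all genes 23 and 9 were called with itaconate (573 and 301 with the block) and 0 for the interaction (1 with the block). It changed no other call of a member. Scaled by total counts, 1 member was called without itaconate and 3 with itaconate. The share of calls that were higher then went from 50.1 to 68.5% and from 50 to 62.9% for lipid, and from 40 to 28.6% and from 51.2 to 17.9% for itaconate. With only the libraries of the comparison, 0 members were called for lipid with itaconate, and of all genes 1859 and 14 for itaconate without and with lipid. *Apoh* with lipid alone passed with DESeq2 (adjusted p = 0.0433) and when only the compared libraries were fitted (adjusted p = 0.0318).

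Leaving out 1 library at a time gave 3 to 6 members called for lipid alone. *Alb* lost its call without lipid replicate A (adjusted p = 0.0551) or B (0.0525), *Ttr* without untreated replicate C (0.0690) and *Gc* without lipid replicate C (0.0516). *Apoh* gained one without untreated replicate B (0.0366) or lipid + itaconate replicate C (0.0317), and without the latter so did *Rbp4* (0.0399). In the presence of itaconate the count was 2 to 5: 2 without itaconate replicate C (*Ahsg* and *Gc*), 2 without lipid + itaconate replicate D (*Gc* and *Ttr*), 3 without lipid + itaconate replicate C (*Ahsg*, *Alb* and *Gc*) and 3 without itaconate replicate D (*Ahsg*, *Alb* and *Ttr*). There *Ahsg* also lost its call without itaconate replicate A (0.0610) and *Apoh* without itaconate replicate B (0.0807). The cause was not tested. Of all genes, 149 to 1051 were called for itaconate without lipid, 59 to 891 with lipid, and 0 to 8 for the interaction.

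With no filter, 1091, 725 and 231 genes were called for itaconate without lipid, with lipid and for the interaction. DESeq2 called 509 for itaconate with lipid and 36 for the interaction. The interaction was called for 2 genes with RLE factors, 2 with TMM without the 9 members and 2 with filterByExpr, and for 0 with total counts.

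The members' log2 fold changes that turned sign were all close to 0 and uncalled. Scaled by total counts they were, for itaconate without lipid, -0.015 for *Fetub* and -0.013 for *Ambp*, and with lipid -0.016 for *Alb*, -0.014 for *Ttr*, -0.045 for *Fetub*, -0.026 for *Ambp* and -0.018 for *Apoh*. With TMM without the 9 members *Fetub* was at -0.0014. For the interaction, total counts gave -0.021 for *Alb*, -0.025 for *Ttr*, -0.012 for *Ambp*, -0.014 for *Rbp4* and -0.021 for *Gc*. TMM without the 9 members gave -0.0023 for *Alb*, -0.0059 for *Ttr* and -0.0035 for *Gc*, and filterByExpr gave -0.00098, -0.0046 and -0.0023 for the same genes. For *Ttr* it was -0.0035 with no filter, -0.0016 with RLE factors and -0.0016 with DESeq2, and for *Gc* -0.0016 with no filter.

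Leaving out 1 library at a time, the itaconate effect without lipid ran from -0.0096 to 0.051 for *Alb*, -0.0065 to 0.074 for *Ttr*, -0.0091 to 0.057 for *Ahsg*, -0.025 to 0.050 for *Fetub* and -0.028 to 0.050 for *Ambp*. With lipid it ran from -0.019 to 0.091 for *Alb*, -0.024 to 0.12 for *Ttr*, -0.032 to 0.042 for *Fetub*, -0.0082 to 0.053 for *Ambp*, -0.047 to 0.0031 for *Gc* and -0.019 to 0.086 for *Apoh*. The interaction ran from -0.050 to 0.065 for *Alb*, -0.062 to 0.085 for *Ttr*, -0.045 to 0.035 for *Fetub*, -0.025 to 0.052 for *Ambp*, -0.034 to 0.089 for *Rbp4*, -0.018 to 0.031 for *Gc* and -0.083 to 0.026 for *Apoh*. *Afp*, limited by its 7 to 33 counts a library, has values only with no filter and with filterByExpr, where it had the same direction in all 5 comparisons and passed in 0 of them. The interaction always used all treatments.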
